A study of Drosophila melanogaster with 2 samples.

Results

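Of 8005 genomic regions that passed a reproducibility threshold in ChIP-seq of fruit fly pupae, 210 (2.62%, exact binomial 95% interval 2.28 to 2.997%) had their summit in an annotated exon away from any promoter. A region was taken when its summit lay more than 500 bp from every Ensembl transcript start, transposable elements left out, and fell in a 5' UTR, a coding exon, a 3' UTR or an exon of a noncoding RNA, tried in that order. The 210 regions comprised 49 in 5' UTRs, 8 in coding exons, 65 in 3' UTRs and 88 in noncoding exons, and they belonged to 185 genes. The 2 libraries were biological replicates of 1 group, per the labels: whole Drosophila melanogaster pupae at 48 h, both sexes together, of a transgenic line carrying CG8301 with GFP at its C terminus. The labels name no untagged or untreated group, so there is no contrast between conditions, although the submitters list another experiment as a possible control. The antibody field names CG8301 while the free text of both libraries speaks of an input control, so the regions are described here without assigning them to the fused protein. Whole animals were used, so a region marked strongly in few cells and one marked weakly in many cannot be told apart.

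In the fly, regulatory DNA such as promoters and enhancers lies mostly next to genes and in their introns, while coding exons are constrained by the protein they encode. A 5' UTR exon often sits between the alternative starts of 1 gene, a 3' UTR lies between the stop codon and the next gene, and a long noncoding RNA exon carries no reading frame. Some noncoding RNA genes of the fly are primary transcripts of microRNAs, from which short hairpins are cut out.

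The windows of 29 bases centred on 14 summits are shown because the classes differ in base composition there, from 3 leading members of each other class and 5 of the 8 coding members, with the longest run of A and T in each window in capitals. All are on the plus strand of dm6, read from the RefSeq copy of that assembly, and the names give the gene and the window.
baz, 5' UTR, chrX:17178679-17178707: tacattgTTAATTTAgttatgtttttgta
firl, 5' UTR, chr2L:12065875-12065903: tagaatctcaaaattgcttagAAATAAAc
cbt, 5' UTR, chr2L:479131-479159: gtccAATgttcagctgcggcctctcgctc
CG5895, coding exon, chr3L:16037148-16037176: TTTAATTTgtactgaattgtataatacta
sgg, coding exon, chrX:2659509-2659537: ccgATTAAAATAccgctaaccgagcgctt
bif, coding exon, chrX:11681738-11681766: atcagtagcactagtcAAAAgagaaacat
Dph4, coding exon, chr3R:5622194-5622222: cacAATcacttcgggtgactcatcatcgt
CG1632, coding exon, chrX:8271985-8272013: acgAATcagtgggcgctcattggggtctc
Ance-3, 3' UTR, chr2L:13955901-13955929: aagatgATTcatgaagtagattcagacac
APC7, 3' UTR, chrX:6599480-6599508: TTTATcatccattgtctaaaagtgaatgt
Cals, 3' UTR, chr4:1113312-1113340: cctttcAAAAActgctgcaatatgctttg
lncRNA:Vinr, noncoding exon, chrX:12751343-12751371: catgtttctgTTAAAAATTTTgtgtttag
lncRNA:CR46035, noncoding exon, chr3R:17704403-17704431: ctgatcaagtcactcatcAAAAgactgaa
lncRNA:CR44619, noncoding exon, chrX:12754505-12754533: TTTTAAgctaactataccataaaacaaat

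The 14 windows are mixed. The run reached 11 bases in the noncoding exon of lncRNA:Vinr and 9 in the coding exon of sgg, but only 3 in cbt, Dph4, CG1632 and Ance-3. In the wider window of 101 bp around the summit, GC content ran from 18.8% at firl to 65.3% at CG1632, so a strong member need not be AT-rich: cbt, the third strongest 5' UTR member, had 50.5%. No window was taken from chromosome arm 2R, where the 3 coding members not shown lie. These 3, otp, LRP1 and Tsp42Ee, had 61.4, 59.4 and 40.6%.

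The classes differed most in how often their sequence held a summit. Outside promoters, coding exons covered 18.4 Mb and held 8 summits, or 0.435 per Mb (exact Poisson 95% interval 0.188 to 0.856). The 3' UTRs covered 5.93 Mb and held 65, or 11.0 per Mb (8.47 to 13.98). The intervals of these 2 classes lay far apart and both lay below the 59.9 per Mb of the whole assembled arms. The 5' UTRs covered 1.04 Mb and held 49, or 47.0 per Mb (34.75 to 62.1). The noncoding exons covered 1.07 Mb and held 88, or 82.5 per Mb (66.2 to 101.6). The interval of noncoding exons included the density of introns, 74.8 per Mb (72.4 to 77.1), and that of 5' UTRs included the density of intergenic sequence, 41.1 per Mb. All 4 exon classes lay below promoters, at 129.9 per Mb. These intervals, and those on shares below, cover counting error of regions only; read counts were not analysed here, so sequencing depth is unknown.

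**Figure D1:**
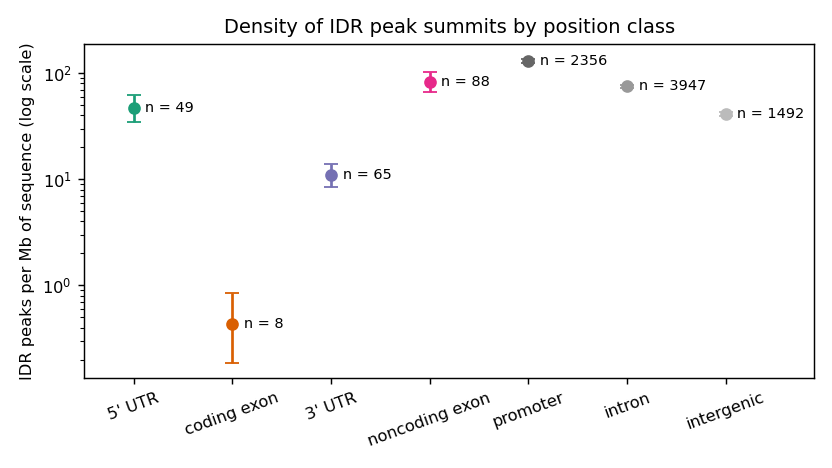
IDR peak summits per Mb of sequence (log scale) by position class, with exact Poisson 95% intervals and the number of summits beside each point. Coding exons, with 8 summits, lie at 0.435 per Mb and noncoding exons, with 88, at 82.5 per Mb, beside introns at 74.8.

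The signal of a region is the authors' value, on a scale the sources do not state. It therefore served only for ranks within a list, where a percentile of 100 marks the strongest region. Members had a median signal of 272.8 and a median percentile of 45.3, where the whole list has 50. The medians by class were 44.0 in 5' UTRs, 26.6 in coding exons, 44.0 in 3' UTRs and 55.1 in noncoding exons. The middle parts of the classes overlapped widely, with quartiles of 12.4 and 70.0 in 5' UTRs and of 21.7 and 76.8 in noncoding exons. Of the members 97 were in the stronger part of the IDR list, its first 4002 regions, among them 47 of 88 noncoding and 2 of 8 coding members.

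Extending the count down the authors' pooled list of 30000 regions showed which class depends on rank. In blocks of 5000 regions from the strongest to the weakest, coding exons held 2, 16, 24, 50, 97 and 122 summits. The count rose in every block. The 3' UTRs went from 35 in the strongest block to 88 in the weakest. Noncoding exons stayed between 53 and 59 and 5' UTRs between 26 and 58 throughout, with the lowest 5' UTR count in the strongest block. Promoters moved the other way, from 31.3% of the strongest block to 14.4% of the weakest. Median GC at the coding summits was 45.05% in the strongest block, with only 2 summits, and 55.45% in the weakest, beside 53.4% for all coding sequence outside promoters.

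**Figure D2:**
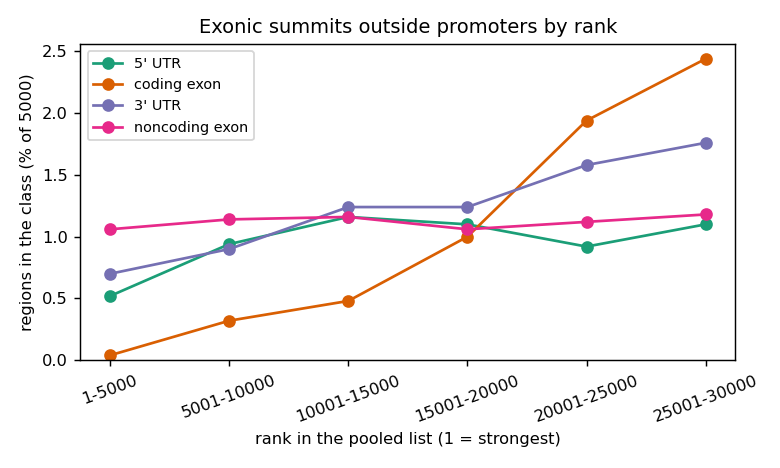
Share of pooled regions with a summit in each exon class outside promoters (percent), by block of 5000 regions ordered from the strongest to the weakest. Coding exons rise from 0.04 to 2.44% while noncoding exons stay between 1.06 and 1.18%.

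Both replicate lists were searched for each member, among as many of the strongest regions as the IDR list holds. The IDR list was derived from both replicates, so the shares that follow are a description and no independent check. Of the 210 members 157 (74.8%, interval 68.3 to 80.5%) overlapped such a region in both replicates, against 77.8% of all IDR regions, so members stood close to the list as a whole. The counts were 36 of 49 in 5' UTRs, 5 of 8 in coding exons, 47 of 65 in 3' UTRs and 69 of 88 in noncoding exons. A further 51 members overlapped one in a single replicate, 21 in replicate 1 and 30 in replicate 2, and 2 in neither. In the whole replicate lists, 205 members had an overlapping region in both, and their ranks differed by a median of 1030 places. The 3 with the largest gap were weak members. A summit of lncRNA:CR43626 ranked 20920 in replicate 1 and 5940 in replicate 2, one of eas ranked 23355 and 8856, and that of TAF1B, an RNA polymerase I initiation factor, ranked 17601 and 4983. All 3 were stronger in replicate 2 by the region with the nearest summit, and the eas region also overlapped stronger ones in both replicates.

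**Figure D3:**
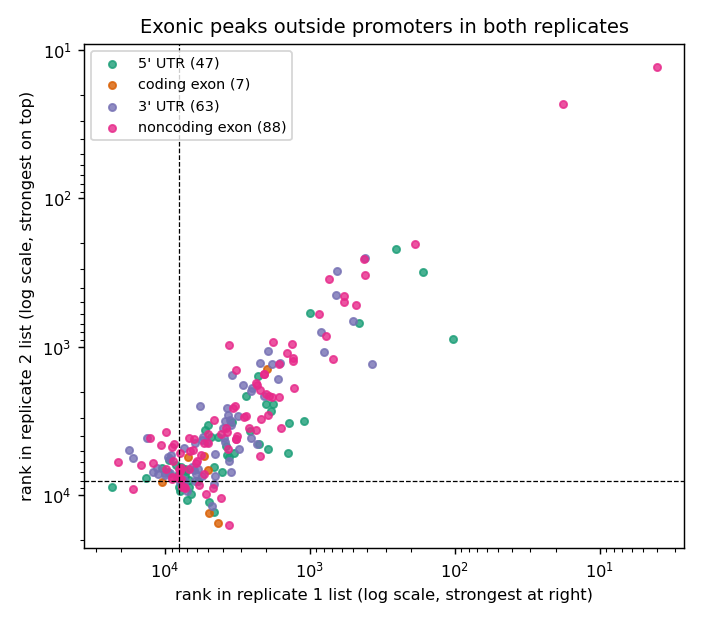
Rank of the overlapping region in the replicate 1 list against the replicate 2 list (both log scales, strongest at the upper right) for the 205 members found in both, coloured by class; dashed lines mark rank 8005. lncRNA:Vinr and lncRNA:CR46035 stand at the upper right, and every other member ranks beyond 100 in both lists.

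The summits of both replicates kept the class of the pooled summit for 185 members (88.1%), against 94.3% of all IDR regions. The class held for 62 of 65 members in 3' UTRs, 79 of 88 in noncoding exons, 40 of 49 in 5' UTRs and 4 of 8 in coding exons. Over the members, the median shift of a replicate summit from the pooled summit was 20 bp in replicate 1 and 9 bp in replicate 2. Of the members 34 had their summit within 50 bp of an exon edge, taken as the edge of the stretch formed by joining overlapping exons of all transcripts and genes, so that ends of single exons inside such a stretch are not counted.

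The 8 coding members were mostly weak, and their summits lay at a median of 62 bp from an exon edge, against 332.5 bp for all members. The strongest, in CG5895 (3L, summit 16037162), ranked 1584 with a signal of 617, and ranked 1968 in replicate 1 and 1402 in replicate 2. Its pooled summit fell on the annotated stop codon and that of replicate 2 in the 3' UTR, with 28.7% GC. Of its region, 51.4% was coding. The summit in otp, which encodes the homeodomain factor Orthopedia, ranked 2980, was wholly exonic and had 61.4% GC, but replicate 1 held no region there while replicate 2 ranked it 1925. It was the 1 coding member with a region in a single replicate list. The summit in sgg, the fly GSK-3 kinase of Wingless signalling, ranked 5183, with 5402 and 5436 in the replicates. Only 3 of 17 annotated sgg transcripts have that exon, and a promoter peak of sgg ranked 187. The summit in LRP1, a low-density lipoprotein receptor family member, ranked 5657, with 6923 and 5491, and lay 10 bp from an exon edge. The summit in bif, which encodes the actin-associated protein Bifocal, ranked 6099, with 5050 and 6723, and that of replicate 2 was intronic. Of the 8, sgg, LRP1 and CG5895 had both replicate summits within exons and both ranks among the first 8005.

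The 3 weakest coding members stood near the end of the IDR list. Replicate ranks are those of the overlapping region with the nearest summit. The summit in Dph4, a gene of diphthamide synthesis, ranked 7713, with 4960 in replicate 1 and 13236 in replicate 2. The summit in CG1632 ranked 7920, with 4292 and 15430. Both ranked beyond 8005 in replicate 2, although the CG1632 region also overlapped a stronger one there. The summit in Tsp42Ee, a tetraspanin gene, ranked 7868, with 10522 and 8109, both beyond 8005. Its summits were intronic in both replicates, and only 20.5% of its region was exonic.

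Of the 49 5' UTR members, 28 lay in an intron of another transcript of the same gene, and the median distance to the nearest start was 845 bp. The nearest start belonged to the host gene for 45. The strongest lay in baz, which encodes the polarity scaffold Bazooka (Par-3), with a signal of 1709.6, rank 209, and ranks 254 and 219 in the replicates. It was 4549 bp from the nearest start and exonic in 2 of 4 transcripts. The next was in firl, at signal 1680.1 and ranks 165 and 311 in the replicates. That of cbt, the Krüppel-like zinc finger factor Cabut, had a signal of 1415, with ranks 103 and 884. All 3 were among the first 1000 regions of both lists.

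Among the next 5' UTR members, the summit in Raf, the MAP kinase kinase kinase of receptor tyrosine kinase signalling, had a signal of 1117 and ranks 460 and 694, and 43.3% of the region was exonic. That of SREBP, a transcription factor of lipid synthesis, had a signal of 924 and lay 3 bp from an exon edge. Its replicate 1 region ranked 388 with an intronic summit and replicate 2 had none, so this member is exonic by the pooled summit alone. That of Fbl6, an F-box gene, had a signal of 1021 and ranks 989 and 593, with a promoter summit in replicate 1. The remaining members of the leading 10 were eas, the ethanolamine kinase easily shocked, at 583, the nucleoporin gene Nup153 at 539, spen, an RNA-binding corepressor, at 497 and the phosphatase gene Pp2C1 at 489.

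The 3' UTR members lay toward the ends of genes, which follows from the class. Their median distance to the nearest end of a host transcript was 362 bp, with 41 of 65 within 500 bp. For 27 of the 65 the nearest start was that of another gene, and in 19 of these the summit was upstream of that start. The strongest was in Ance-3, of the angiotensin-converting enzyme family, with a signal of 1528 and ranks 413 and 254. That of APC7, an anaphase-promoting complex subunit, had 1359 and ranks 650 and 307. It lay 568 bp from a start. That of Cals, the cadherin-family protein Calsyntenin, had 1215 and ranks 654 and 447, lay 452 bp from the end of its transcript and was the 1 member on chromosome 4. The other leading members were CG7872 (1115), stas (974), the perilipin gene Lsd-2 (927), CG33307 (883), by, which encodes the fly tensin (724), the F-box gene Ppa (708) and CG5984 (631).

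All 88 noncoding members lay in 71 genes annotated as noncoding RNA, and 28 of them also in an intron of a protein-coding gene. The 2 strongest members of any class were here. The summit in lncRNA:Vinr (X, summit 12751357) had a signal of 4657 and ranked 6 in the IDR list, 4 in replicate 1 and 13 in replicate 2. It was 510 bp from the nearest start, and the replicate 2 summit fell within the promoter limit. The summit in lncRNA:CR46035 (3R, summit 17704417) had a signal of 3745 and ranked 18, with 18 and 23 in the replicates, at 722 bp from a start. Those of lncRNA:CR44619 (1833), lncRNA:CR43334 (1525, 1227 and 1005), lncRNA:CR46084 (1427), lncRNA:CR44632 (1289.5), lncRNA:CR45232 (1209) and lncRNA:CR45226 (1196) made up the leading 10.

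Noncoding RNA genes that span a microRNA hairpin, called hosts here, were frequent among the noncoding members. The strand of the gene was not compared with that of the hairpin. Of 3001 noncoding RNA genes, 71 (2.37%) held a member. Of the 40 that span an annotated microRNA hairpin, 7 (17.5%) held 17 members, against 64 of the other 2961 (2.16%). The host genes are also longer, with a median of 2824 bp of exon against 559 bp, and per exonic Mb they held 92.9 members against 30.1. These densities use all exonic bases, 2.54 Mb over all noncoding RNA genes, also those within 500 bp of a start, where no member can lie. Noncoding exons outside promoters cover 1.07 Mb. Shorter genes have more of their exon near a start, so the densities do not correct for exon length. The part of exon length in the gene counts and in the densities was not tested. This grouping was chosen after the values were seen and is a description.

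The bantam host, lncRNA:CR43334, had 6 members, more than any other gene. Its joined exons cover its whole span (628435 to 643900), so no summit inside it could be classed as intronic. In sbb, 25 of the 27 IDR summits inside the gene were intronic and 1 was a member. The bantam microRNA promotes growth and blocks cell death in the fly. Its hairpin (3L, 642208 to 642288) is annotated at the downstream end of the transcript, and the 6 summits lay upstream of it. From the farthest, at 12246 bp, to the nearest, at 1432 bp, their signals were 178, 760, 1005, 1525, 338 and 1227. The ranks were 7687, 1802, 857, 421, 4546 and 477 in replicate 1 and 6526, 922, 602, 255, 3092 and 519 in replicate 2. The order of the 6 by rank was the same in both replicates, led by those at 5557 and 1432 bp. No member overlapped the hairpin, but annotated microRNA starts count as transcript starts, so the 500 bp limit leaves out summits close to it.

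**Figure D4:**
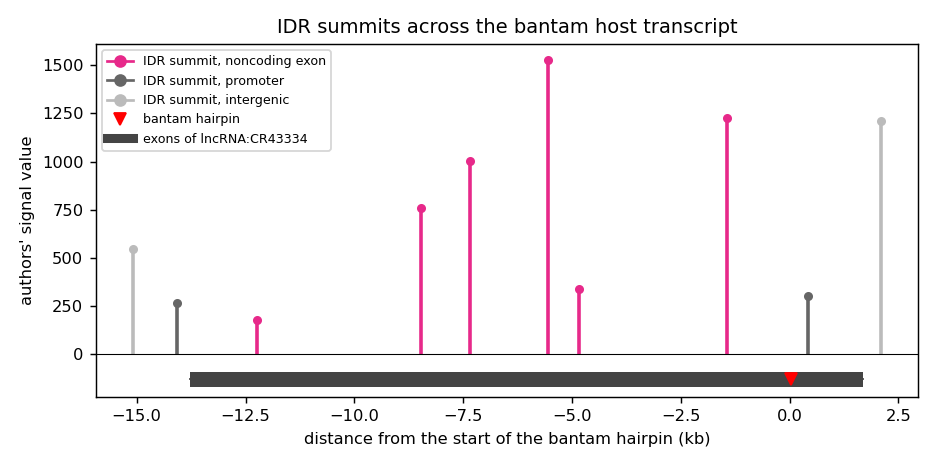
Authors' signal value of each IDR summit from upstream of lncRNA:CR43334 to past its end, against the distance from the start of the bantam hairpin (kb); coloured stems are noncoding exon summits, grey stems promoter or intergenic summits, and the bar below marks the exons. The 6 noncoding members reach from 178 to 1525 and all lie upstream of the hairpin.

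Other microRNA hosts had fewer. lncRNA:CR43650, which spans mir-8, held 3 members with signals of 299.5, 756 and 864, at 4985, 6183 and 7072 bp from the hairpin. lncRNA:CR46004, which spans mir-276b, held 3 with 538, 691 and 153, at 4690, 3753 and 1244 bp. lncRNA:CR43626, which spans mir-282, held 2 with 159.7 and 155, which ranked 20920 and 14503 in replicate 1. The hosts lncRNA:CR31044 (mir-279 and mir-996), lncRNA:CR43314 (mir-bft) and lncRNA:Hsromega (mir-4951) held 1 each, with signals of 174, 233 and 153. All 3 members of the mir-8 host and 2 of the mir-276b host were among the first 4002 IDR regions, and those of the mir-282 host were not.

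Of the 185 genes 17 held more than 1 member, 42 in all. Besides the microRNA hosts, the protein-coding ones were Lsd-2 and spen with 3 each and CG4004, baz, eas and Rac2 with 2 each. Among noncoding genes lncRNA:CR43751, lncRNA:CR44619, lncRNA:CR44779, lncRNA:CR44831, lncRNA:CR45245, lncRNA:CR45531 and lncRNA:CR46214 had 2 each. Neighbouring summits are not always separate sites. Of 25 adjacent pairs within a gene, 7 were spaced 199 to 217 bp apart and the next 602 bp or more, and in 5 of these 7 the regions overlapped. In Lsd-2, 2 members had the same bounds (15069303 to 15070147) with summits 200 bp apart. Their matched replicate 2 region was also the same, at rank 1315. Both CG4004 members likewise matched 1 replicate 1 region, at rank 3497. Over all members, 16 regions overlapped another IDR region, and the 210 covered 204 separate stretches. A width of 410 bp, shared by 1254 IDR regions (15.7%), was found in 40 members (19.0%), whose median rank was 7446.

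At 1 place on the X chromosome, chosen after the values were seen, neighbouring members lay in several genes. Within 8858 bp (12748420 to 12757278), 6 members lay among 10 IDR summits, in CG4004 with 2, lncRNA:Vinr, lncRNA:CR44619 with 2, and Paics, a gene of purine synthesis. Their ranks ran from 6 to 7888. The regions of the 2 CG4004 members overlapped, as did those of the 2 lncRNA:CR44619 members. Other runs of 3 or more members, with gaps of at most 10000 bp, each lay in a single gene. Among them were 6 members in 10814 bp of lncRNA:CR43334 and 3 in 1526 bp of Lsd-2. The X chromosome held 61 of the members (29.0%) and 19.4% of the IDR regions, so 3.94% of its regions were members, against 1.92% on 3R, 2.09% on 2L, 2.52% on 2R and 2.67% on 3L. On chromosome 4, 1 of 10 regions (10%) was a member.

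The host genes often carried a promoter peak as well. Of the 114 protein-coding hosts 48 (42.1%) had one, against 16.2% of the 13945 protein-coding genes. Of the 71 noncoding hosts 25 (35.2%) had one, against 10.8% of the 3001 noncoding RNA genes. Every host holds an IDR summit by the rule, while 14.9% of all protein-coding genes have an IDR summit inside the gene. The share among genes with other IDR summits is not given here, so the difference need not be particular to exonic members. The member was the only IDR summit within the gene for 113 hosts, among them 41 of 61 with a 3' UTR member and 18 of 45 with a 5' UTR member. Summits outside the annotated gene span are not counted, so such a host can have a promoter peak, as cbt does at rank 73. Members were exonic in every transcript of the host that spans the summit for 168 of 210, and 140 regions were exonic along their whole length.

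Among all 13945 protein-coding genes, 114 (0.817%) held a member and 14.9% had an IDR summit inside the gene. Of 20 ecdysone response genes found in the annotation, 2 held a member, and 18 had an IDR summit inside the gene. Those with a member were EcR, the ecdysone receptor, with a 5' UTR signal of 279 and ranks 4820 and 4045, and ftz-f1, the nuclear receptor that sets competence for the next ecdysone pulse, with 269.6 and ranks 3812 and 4674. Of the 10 EGFR pathway genes on the list used, 1 did, csw, the Corkscrew tyrosine phosphatase, with 149 and ranks 6571 and 9844. That list does not include Raf, whose 5' UTR member ranked 586. None of 12 Notch, 11 neuronal RNA-binding or 10 Hox and homeodomain genes had one, while 6, 7 and 4 of them, in that order, and 9 of the 10 EGFR genes had an IDR summit inside the gene. The Hox and homeodomain list holds only the Hox genes, exd and hth. The homeodomain gene otp, which is not on it, held a coding member.

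Around the summit GC content was low in noncoding exons and 3' UTRs, as in the whole list, less so in 5' UTRs, and not in coding exons. Over 101 bp at the summit the median GC of members was 31.7%, against 42.6% and 45.5% in windows 500 bp to the left and right. It was 29.2% in noncoding exons, 31.7% in 3' UTRs, 38.6% in 5' UTRs, whose flanks had 40.6 and 44.6%, and 47.5% in coding exons. For all IDR regions it was 30.7%, with 43.6% in both flanks. The classes' own sequence outside promoters has 42.0, 35.2, 45.7 and 53.4% GC in the same order. The summit was below both flanks for 129 members (61.4%), against 70.8% of all IDR regions, for 66 of 88 noncoding, 38 of 65 3' UTR, 24 of 49 5' UTR and 1 of 8 coding members. The longest A and T run in that window had a median of 11.5 bases in noncoding exons and 10 in 3' UTRs, 9 in 5' UTRs and 5.5 in coding exons.

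**Figure D5:**
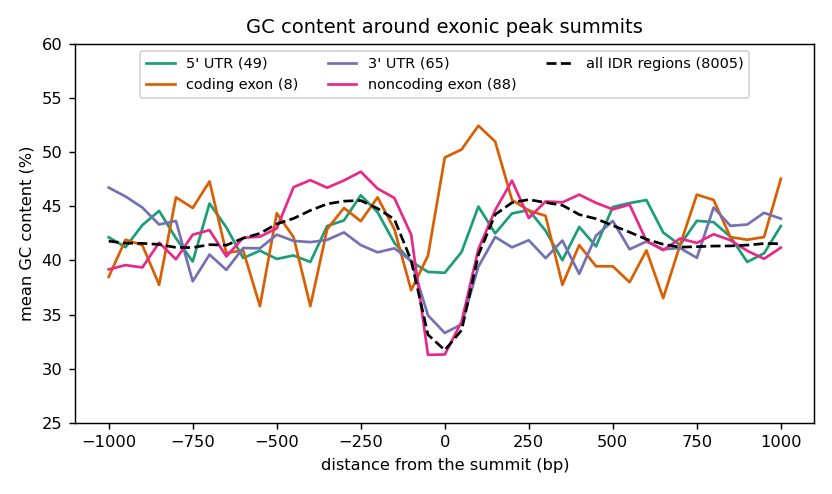
Mean GC content (%) in windows of 51 bp against distance from the summit (bp), for the 4 exon classes and for all IDR regions (dashed), with the number of regions in brackets. Noncoding exons dip at the summit like the whole list, 3' UTRs and 5' UTRs dip less, and the 8 coding exons do not dip. From 250 bp to the left to the summit, 3' UTRs go from 41.4 to 33.3% and the whole list from 45.5 to 31.7%.

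Of 18 short motifs searched on both strands in the 101 bp at the summit, 6 were found in at least 5% of members. TATAAA, the TATA box core, was in 43 members (20.5%), against 23.8% of all IDR regions, and in 13.3% and 8.10% of members in the flanks. GCCAT, the Pleiohomeotic core, was in 29 (13.8%), against 11.4%, and was more frequent in the flanks, at 20 and 22.4%. GAGAG, which the GAGA factor binds, was in 28 (13.3%), against 9.33%, and in 10% and 14.8% of members in the left and right flanks. Of the 28, 12 were among the 49 5' UTR members. A run of 8 A (AAAAAAAA) was in 28 (13.3%), against 9.14%, with 6.19 and 5.24% in the flanks. CGATA, the BEAF-32 core, was in 25 (11.9%), against 10.6%, with 11.4 and 10.5% in the flanks. TAATTA, a homeodomain core, was in 19 (9.05%), against 10.6%, with 9.52 and 5.71% in the flanks. The intervals on the members' shares included the value of the whole list for TATAAA (15.2 to 26.6%), GCCAT (9.45 to 19.2%), CGATA (7.85 to 17.1%), TAATTA (5.54 to 13.8%), GAGAG (9.05 to 18.7%) and AAAAAAAA (9.05 to 18.7%). TATAAA can share bases with a run of A and with TAATTA, and CGATA is part of TATCGATA, the DREF motif, which was in no member. A match describes the letters in the window and not a bound site.

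The 500 bp limit passes through a dense zone. Just beyond it lay lncRNA:CR43704 at 504 bp (signal 455), lncRNA:CR45564 at 505 bp (323) and CG15247 at 508 bp (179). Just within it, and so outside the set, lay exonic summits of wrd and lncRNA:CR43932 at 500 bp (291 and 202) and of lncRNA:CR44444 at 499 bp (377). In the 100 bp beyond the limit there were 31 members, and in the 100 bp within it 46 exonic summits.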

How the data were processed

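The region lists, on assembly dm6, are those the authors deposited: 30000 regions per replicate, 30000 for both pooled, and 8005 past their irreproducible discovery rate (IDR) threshold, which equals the first 8005 of the pooled list. Peak caller, aligner and cut-off were not given in the sources used here. Each list's signal is the authors' value on a scale that is not stated; the deposited −log10 q-values are the same for all IDR regions and were not used for ranking; the deposited summit offset gave the position. Genes came from Ensembl release 115 (BDGP6.54) and sequence from RefSeq, both of Release 6, that is dm6; coordinates count from 1. Stop codons were counted as coding. Intervals are exact at 95%. An overlap needed at least 1 bp. No test was made between groups. The named genes are all coding members, the 10 strongest of each other class, genes with several members, those at the 500 bp limit, the 3 largest replicate gaps and list genes. The members and lists were chosen with earlier results of these data known. Class assignment was checked on artificial genes with known classes. Python 3.11.15 with numpy 2.4.6, pandas 2.3.3, scipy 1.17.1 and matplotlib 3.10.9 was used.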

Additional observations from a re-analysis of the deposited data

How the results depend on the processing

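The count of 210 was 201 to 218 with RefSeq genes (211), with overlapping weaker regions left out (201, chosen after seeing the data) or from the strongest 8005 regions of either replicate alone (202 and 218), and 210 with coding exons assigned first. With promoter limits of 250 and 1000 bp it was 338 and 121 members. These comprised 106 and 17 in 5' UTRs and 20 and 3 in coding exons. The 3' UTRs held 77 and 54 and noncoding exons 135 and 47, so 3' UTRs were the largest class at 1000 bp. The 4002 strongest regions held 97, with 20, 2, 28 and 47 in 5' UTRs, coding exons, 3' UTRs and noncoding exons. Counting a base as exonic only where no transcript has it in an intron left 131. Of these, 19 were in 5' UTRs, 6 in coding exons, 51 in 3' UTRs and 55 in noncoding exons. Coding exons numbered 5 from replicate 2 alone and 12 from replicate 1 alone. The share overlapping both replicates, 74.8%, was 65.2% with at least 50% of the region overlapping, 68.1% where the replicate region holds the summit, 97.6% over the whole lists and 40.95% with 4002 regions. The median percentile of 45.3 was 44.1 and 47.7 in the replicates alone and 48.05 without overlapping weaker regions. Median GC of 31.7% at the summit was 32.7% at replicate 1 summits and 31.7% at those of replicate 2. Of 18 motif shares, 10 left their interval with windows of 25 bp to each side and 10 with 100 bp; shares rise with window length by construction. The cause of the other differences was not tested.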
